A study of Mus musculus with 7 samples.

Results

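The subject is a set of 9 scavenger receptor genes, Stab1, Marco, Msr1, Cd36, Mrc1, Olr1, Cd163, Lyve1 and Scarb1, taken by symbol from a table of 26130 genes. Each of the 9 symbols occurred in the table, and each passed the filter on low counts that left 13665 genes to test. RNA was sequenced from sorted mouse lung cells in 7 libraries. The mice carried an Fth1-mScarlet reporter, which reads out the ferritin heavy chain gene, together with Lyz2GFP, a green label driven by the lysozyme gene of myeloid cells. In every group the sorted cells were positive for GFP, CD11b and Ly6C and negative for Ly6G, and the labels call them myeloid. The untreated Fth1-low group (2 libraries) held cells of low mScarlet from mice given no treatment. The LPS Fth1-low group (2 libraries) and the LPS Fth1-high group (3 libraries) held cells of low and high mScarlet from mice that received 20 µg of bacterial lipopolysaccharide (LPS) in 50 µl into the trachea, with lungs taken 3 days later. There was no untreated Fth1-high group, so LPS Fth1-high cells set against untreated ones differ by treatment and gate at once, and these cannot be told apart. The labels do not say whether replicates came from separate mice, so p-values measure the spread between these libraries, which may be technical.

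Scavenger receptors are surface proteins of several unrelated families that bind modified lipoproteins, microbial surfaces, dying cells and spent host molecules and carry them into the cell. In the lung they are best known from macrophages, where they clear particles and surfactant lipid, and several are also made by endothelial cells. Msr1 and Marco are trimeric class A receptors for polyanions, Olr1 is a lectin-like receptor for oxidised low-density lipoprotein, and Cd36 and Scarb1 are class B receptors for fatty acids and high-density lipoprotein. Stab1 takes up matrix fragments and other ligands into endosomes, Mrc1 binds mannose-bearing glycoproteins, Cd163 takes up haemoglobin bound to haptoglobin, and Lyve1 binds hyaluronan.

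The libraries held between 637787 and 27997007 counts, and LPS Fth1-low replicate 1 stood apart as the shallowest. The other libraries were 16.4 to 43.9 times as deep. In that library 3 counts equalled 5.02 CPM (counts scaled to a common library size with edgeR's TMM factors), against 0.106 to 0.28 CPM in the others, and ribosomal RNA genes took 19.5% of its counts, against 0.706 to 8.43%. Fth1 itself was at 1786 and 1672 CPM in untreated cells, 2970 and 4825 CPM in LPS Fth1-low cells, and 13230, 21000 and 20470 CPM in LPS Fth1-high cells. Within LPS it was higher in the high gate, which was set on the reporter of this gene. Within the low gate both LPS libraries lay above the untreated ones, but the difference did not pass (log2 difference 1.17 ± 0.35 SE, adjusted p = 0.14 with edgeR's quasi-likelihood test). Lyz2 was between 6140 and 12500 CPM in every library, and Ly6g was at most 0.0932 CPM. In bulk libraries of this kind, fewer cells of a type and less RNA per cell cannot be told apart.

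The 9 genes did not move as a block: 4 had their lowest mean in untreated cells and their highest in LPS Fth1-high cells, and 5 had the opposite order. Stab1, Olr1, Marco and Msr1 made up the first set, and Cd36, Scarb1, Mrc1, Lyve1 and Cd163 the second. The LPS Fth1-low mean lay between the other means for 9 of 9 members. Over all genes tested that held for 40.8%, with 19.4% in rising and 21.4% in falling order.

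Calls were made with edgeR's quasi-likelihood test at a Benjamini-Hochberg adjusted p below 0.05 over all genes tested. In LPS Fth1-high against LPS Fth1-low cells, Stab1 and Olr1 rose and Lyve1 and Scarb1 fell, 4 of 9 members, where 8.25% of all genes were called (3.68% higher, 4.57% lower). In LPS Fth1-low against untreated cells, Stab1 and Olr1 rose and Cd36 fell, 3 of 9 members, where 3.62% of all genes were called (2.99% higher, 0.629% lower). In LPS Fth1-high against untreated cells, Stab1, Olr1 and Marco rose and Cd36, Mrc1, Cd163, Lyve1 and Scarb1 fell, 8 of 9 members, where 24.3% of all genes were called (12.4% higher, 11.9% lower). Median log2 differences of the members were -0.64, -0.83 and -1.49 in these comparisons, beside 0.04, -0.05 and 0.03 over all genes. Each group serves in 2 of the comparisons, so they are not independent of one another.

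**Figure D1:**
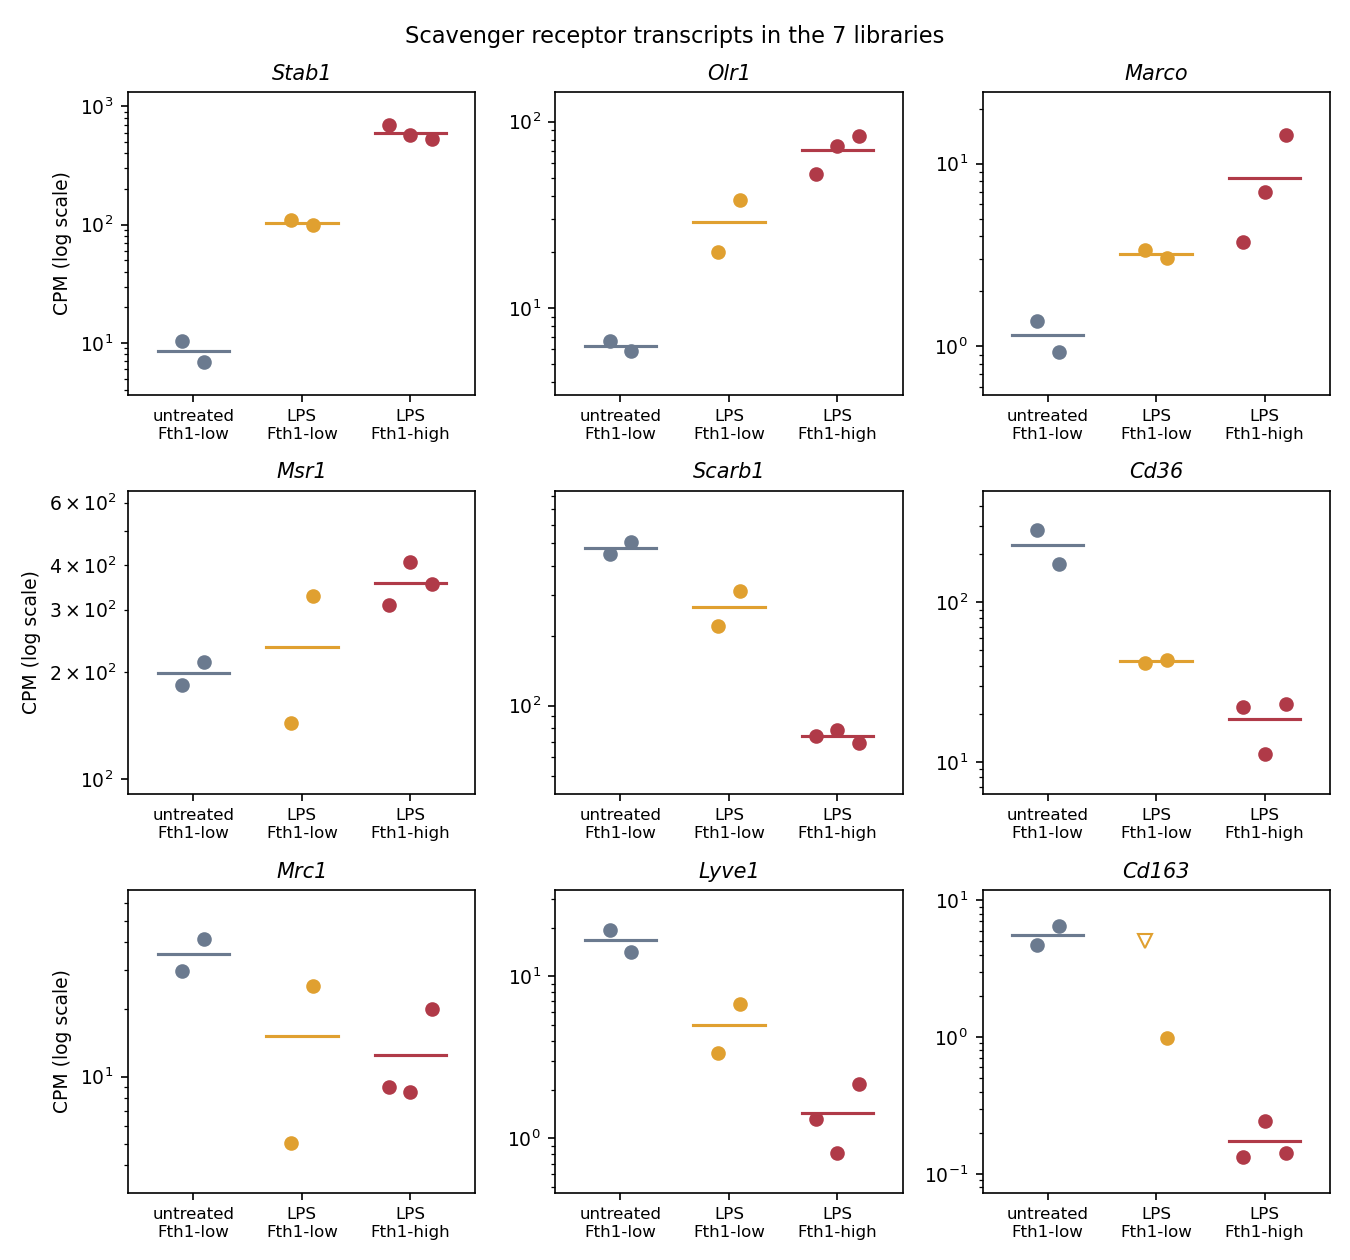
CPM of each scavenger receptor in the 7 libraries, 1 panel per gene, on log axes that differ between panels. Points are libraries and bars are group means; the open triangle marks LPS Fth1-low replicate 1, where Cd163 had 0 counts, at the level of 3 counts (5.02 CPM). Stab1 climbs from 6.90 to 699 CPM across the libraries, and Cd36 declines from 283 to 11.1 CPM.

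The positions of the genes are those of GENCODE vM21 on mm10, the build the submitters' processing notes name. Stab1 lies at chr14:31139013-31168641 (minus strand), Olr1 at chr6:129485244-129507165 (minus), Marco at chr1:120474538-120505024 (minus) and Msr1 at chr8:39581685-39642673 (minus). Cd36 lies at chr5:17781690-17888801 (minus), Scarb1 at chr5:125277087-125341094 (minus), Mrc1 at chr2:14229392-14332057 (plus), Lyve1 at chr7:110850607-110863239 (minus) and Cd163 at chr6:124304656-124330527 (plus). Stab1 is the member whose exons share bases with another gene, Nt5dc2 on the opposite strand.

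RefSeq promoter windows on GRCm38.p6 were matched for 6 members, Stab1, Olr1, Marco, Cd36, Mrc1 and Cd163. The 250 bases before the annotated start are shown for 2 members that rose and 2 that fell, because these ranged most widely over the libraries among members with a window, in opposite directions. They are chr14:31168642-31168891 for Stab1, chr6:129507166-129507415 for Olr1, chr5:17835897-17836146 for Cd36 and chr6:124304401-124304650 for Cd163, each on its gene's strand and written 5′ to 3′. Capitals mark matches to AGGTCA or TGANTCA on either strand.
Stab1: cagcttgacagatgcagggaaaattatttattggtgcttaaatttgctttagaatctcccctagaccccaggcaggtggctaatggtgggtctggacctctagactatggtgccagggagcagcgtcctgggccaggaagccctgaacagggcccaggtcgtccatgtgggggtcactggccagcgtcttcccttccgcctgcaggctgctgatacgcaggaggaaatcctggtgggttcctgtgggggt
Olr1: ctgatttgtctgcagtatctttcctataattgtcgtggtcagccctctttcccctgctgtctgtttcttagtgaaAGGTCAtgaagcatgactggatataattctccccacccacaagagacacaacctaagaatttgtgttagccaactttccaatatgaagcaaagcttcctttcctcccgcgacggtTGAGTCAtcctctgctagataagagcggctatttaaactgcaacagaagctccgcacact
Cd36: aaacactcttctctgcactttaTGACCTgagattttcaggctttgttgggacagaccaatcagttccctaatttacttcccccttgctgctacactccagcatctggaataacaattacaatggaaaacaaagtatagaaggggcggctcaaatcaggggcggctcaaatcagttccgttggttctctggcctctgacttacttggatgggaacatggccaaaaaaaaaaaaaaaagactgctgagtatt
Cd163: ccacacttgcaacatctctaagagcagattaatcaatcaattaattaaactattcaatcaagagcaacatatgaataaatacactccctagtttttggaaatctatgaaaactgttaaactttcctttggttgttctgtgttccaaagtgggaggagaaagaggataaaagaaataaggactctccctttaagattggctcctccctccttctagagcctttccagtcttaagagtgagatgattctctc
The start RefSeq gives for Cd36 lies inside the GENCODE gene span, so other starts of the gene are not covered. Motifs were searched as letters on both strands in windows of 250 bases. The AP-1 motif TGANTCA was found in Olr1, 1 of 6 member windows, and in 6.7% of 32851 windows of all genes. The nuclear receptor hexamer AGGTCA was found in Olr1 and Cd36, 2 of 6, and in 14.0% of all windows. The GGAA core of ETS factors such as PU.1 was found in 6 of 6 and in 93.4% of all windows, too common to mark. Neither the antioxidant response core TGACNNNGC (10.2% of all windows), some of whose matches can overlap TGANTCA, nor the MAF motif TGCTGAC (3.8%) was found in the 6. A match is a run of letters and says nothing of binding.

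Stab1 encodes stabilin-1, a large endocytic receptor of macrophages and sinusoidal endothelium. It was at 10.4 and 6.90 CPM in untreated cells, 109 and 99.6 CPM in LPS Fth1-low cells, and 699, 568 and 532 CPM in LPS Fth1-high cells. The 3 groups did not overlap, and the replicates of each lay close together beside the gaps between groups. In LPS Fth1-low against untreated cells it rose by 3.57 ± 0.29 (log2 difference ± SE, 11.8-fold, adjusted p = 0.00017). From LPS Fth1-low to LPS Fth1-high cells it rose by a further 2.53 ± 0.26 (5.79-fold, adjusted p = 0.00056). LPS Fth1-high cells thus held 68.6-fold the untreated level (6.10 ± 0.31, adjusted p = 3.4e-06). No library left out in turn removed any of these calls. Stab1 was counted deeply even in the shallowest library, with 65 counts there and 15053 in LPS Fth1-high replicate 3.

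The labels describe a stranded kit, but the sources used here do not give whether counting used strand, so reads of Nt5dc2 could have reached Stab1 where exons overlap. Nt5dc2 was at 5.04 and 3.36 CPM in untreated cells, 35.2 and 16.6 CPM in LPS Fth1-low cells, and 31.9, 35.6 and 25.3 CPM in LPS Fth1-high cells. It rose against untreated cells in both LPS groups (2.37 ± 0.39, adjusted p = 0.0092, and 2.85 ± 0.35, adjusted p = 0.00032). Its LPS groups overlapped, with a log2 difference of 0.48 ± 0.35 (adjusted p = 0.48), where those of Stab1 did not. The part of Nt5dc2 in the Stab1 counts was not tested.

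Olr1 encodes LOX-1, which binds oxidised low-density lipoprotein, apoptotic cells and bacteria. It was at 6.62 and 5.87 CPM in untreated cells, 20.1 and 37.9 CPM in LPS Fth1-low cells, and 52.5, 74.2 and 84.2 CPM in LPS Fth1-high cells. The order was that of Stab1, again with no overlap between groups. It rose by 2.36 ± 0.33 in LPS Fth1-low against untreated cells (5.14-fold, adjusted p = 0.0036) and by 1.12 ± 0.29 in LPS Fth1-high against LPS Fth1-low cells (2.18-fold, adjusted p = 0.046). Against untreated cells, LPS Fth1-high cells were 11.2-fold higher (adjusted p = 5.2e-05). The step between the LPS groups is the least firm of these. Its call was lost without any 1 library other than LPS Fth1-high replicate 1 (log2 differences 0.87 to 1.82, adjusted p 0.0528 to 0.157), and that from untreated to LPS Fth1-low cells did not pass when LPS Fth1-low replicate 2 was dropped (1.66, adjusted p = 0.112).

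Marco, the class A receptor typical of alveolar macrophages, was low throughout. It was at 1.37 and 0.932 CPM in untreated cells, 3.35 and 3.03 CPM in LPS Fth1-low cells, and 3.72, 6.95 and 14.4 CPM in LPS Fth1-high cells. The groups did not overlap, but the LPS Fth1-high libraries spread widely and the value of LPS Fth1-low replicate 1 rests on 2 counts. Against untreated cells, LPS Fth1-high cells held 7.09-fold more (2.83 ± 0.61, adjusted p = 0.0086). Dropping untreated replicate 2 ended that call (2.61, adjusted p = 0.0751), and the difference was 2.19 without LPS Fth1-high replicate 3. The differences of 1.43 ± 0.65 between the LPS groups and 1.40 ± 0.70 between LPS Fth1-low and untreated cells did not pass (adjusted p = 0.24 and 0.45), and the first was 0.77 without LPS Fth1-high replicate 3. Of the alveolar macrophage markers, Siglecf, Krt79 and Fabp1 were about as low as Marco, at most 5.02, 2.26 and 1.12 CPM, while Chil3 was between 471 and 5810 CPM. Where Marco was called, beside 12.4% of all genes called higher and 11.9% lower, 0 of 11 markers tested were called higher and 3 lower. Atp6v0d2 of that list was close to a call there, with no overlap, at 12.0 ± 9.71 against 2.37 ± 1.90 CPM (2.295 ± 0.756, adjusted p = 0.056). The part of such cells in the Marco counts was not tested.

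Msr1, the class A receptor for acetylated lipoprotein and lipid A, was abundant in every library. It was at 184 and 214 CPM in untreated cells, 144 and 328 CPM in LPS Fth1-low cells, and 310, 409 and 354 CPM in LPS Fth1-high cells. The LPS Fth1-low libraries spanned the untreated ones on both sides, and LPS Fth1-high cells overlapped with LPS Fth1-low but not with untreated cells. None of its differences was called: 0.28 ± 0.34 for LPS Fth1-low against untreated cells, 0.56 ± 0.32 between the LPS groups and 0.84 ± 0.32 for LPS Fth1-high against untreated cells (adjusted p = 0.82, 0.35 and 0.082). The last of these was close to the threshold. It was called when either LPS Fth1-low library was dropped (0.85 and 0.83, adjusted p = 0.0145 and 0.016), and with DESeq2 (adjusted p = 0.021). Without LPS Fth1-low replicate 2 the difference between the LPS groups was called too (1.32, adjusted p = 0.0358), and that from untreated to LPS Fth1-low cells changed sign (-0.49).

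Cd36 takes up long-chain fatty acids and oxidised lipoprotein and also binds thrombospondin. It was at 283 and 174 CPM in untreated cells, 41.9 and 43.7 CPM in LPS Fth1-low cells, and 22.0, 11.1 and 22.9 CPM in LPS Fth1-high cells. Each group lay below the one before without overlap. It fell by 2.41 on the log2 scale (SE 0.39, 5.31-fold, adjusted p = 0.0092) in LPS Fth1-low against untreated cells. Against untreated cells the LPS Fth1-high level was 12.2-fold lower (-3.61 ± 0.33, adjusted p = 6.3e-05). The first call did not survive dropping untreated replicate 1 (-2.02, adjusted p = 0.0551) or the first or second LPS Fth1-low library (-2.35 and -2.46, adjusted p = 0.0771 and 0.073). Between the LPS groups the difference of -1.21 ± 0.35 did not pass (adjusted p = 0.068), though it did with DESeq2 (adjusted p = 0.00816).

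Scarb1 encodes SR-BI, the receptor for selective uptake of cholesteryl ester from high-density lipoprotein. It was at 448 and 505 CPM in untreated cells, 219 and 310 CPM in LPS Fth1-low cells, and 73.8, 78.8 and 69.3 CPM in LPS Fth1-high cells. The groups did not overlap, and the widest step was that between the LPS groups. There it fell by 1.85 on the log2 scale (SE 0.21, 3.62-fold, adjusted p = 0.00088). Against untreated cells LPS Fth1-high cells were 6.44-fold lower (-2.69 ± 0.21, adjusted p = 2.5e-05). Both calls held with any 1 library left out. The difference of -0.83 ± 0.23 between LPS Fth1-low and untreated cells did not pass (adjusted p = 0.1), and passed without LPS Fth1-low replicate 2 (-1.14, adjusted p = 0.0463) and with DESeq2 (adjusted p = 0.0127).

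The remaining members, the endocytic receptors Mrc1, Lyve1 and Cd163, were each highest in untreated cells. Mrc1, the mannose receptor, was at 29.8 and 41.2 CPM in untreated cells, 5.02 and 25.5 CPM in LPS Fth1-low cells, and 9.02, 8.49 and 20.0 CPM in LPS Fth1-high cells. The LPS groups overlapped each other and neither overlapped with untreated cells. It fell by 1.49 on the log2 scale in LPS Fth1-high against untreated cells (SE 0.47, 2.82-fold, adjusted p = 0.047). Dropping either untreated library, or the first or second LPS Fth1-high library, ended this call (-1.71, -1.24, -1.31 and -1.27, adjusted p = 0.0977, 0.227, 0.0986 and 0.139), as did thinning every library to the shallowest total (-0.83, adjusted p = 0.515). Mrc1 had 3 counts in LPS Fth1-low replicate 1, and its other differences were -0.64 ± 0.50 between the LPS groups and -0.85 ± 0.55 for LPS Fth1-low against untreated cells (adjusted p = 0.52 and 0.6). Both moved most without LPS Fth1-low replicate 2: they were then 1.33 and -2.84, and without replicate 1 of that group -1.03 and -0.45. Thinning gave -0.22 for the second.

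Lyve1, the hyaluronan receptor of lymphatic endothelium and of some tissue macrophages, was at 19.4 and 14.2 CPM in untreated cells, 3.35 and 6.74 CPM in LPS Fth1-low cells, and 1.33, 0.813 and 2.16 CPM in LPS Fth1-high cells. Levels stepped down from group to group with no overlap, but the value of LPS Fth1-low replicate 1 rests on 2 counts. The 95% counting interval of that value, 0.405 to 12.1 CPM, takes in every LPS Fth1-high value. The fall of LPS Fth1-high against untreated cells was 11.6-fold (-3.54 ± 0.44, adjusted p = 0.00036), and it was called with any 1 library left out. Between the LPS groups it was 4.07-fold (-2.03 ± 0.47, adjusted p = 0.028). It no longer passed after dropping either untreated library, LPS Fth1-low replicate 2, or the first or second LPS Fth1-high library (log2 differences -2.03 to -1.20, adjusted p 0.0577 to 0.552). LPS Fth1-low against untreated cells differed by -1.51 ± 0.51 (adjusted p = 0.21). Lymphatic endothelial markers, 6 genes, summed to 11.1 and 2.05 CPM in untreated cells, 20.1 and 13.6 CPM in LPS Fth1-low cells, and 112, 112 and 168 CPM in LPS Fth1-high cells. The list did not share 1 order. Mmrn1 and Reln had their highest means in LPS Fth1-low cells (5.56 and 3.68 CPM), and Flt4 in LPS Fth1-high cells (3.57 CPM). Pdpn made up most of the LPS Fth1-high sums, at 122 ± 37.4 CPM there, and was the 1 of 5 tested that was called (higher between the LPS groups and against untreated cells). Of all genes, 3.68% and 12.4% were called higher in these 2 comparisons. Prox1, the defining transcription factor, was at most 0.167 CPM, Ccl21a at most 1.67 CPM, and Flt4, Reln and Mmrn1 at most 5.31, 6.70 and 10.0 CPM. Their part in the Lyve1 counts was not tested.

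Cd163, the haemoglobin scavenger receptor, was the member closest to its detection limit. It was at 4.71 and 6.53 CPM in untreated cells, 0 and 0.977 CPM in LPS Fth1-low cells, and 0.133, 0.244 and 0.141 CPM in LPS Fth1-high cells, where it had 2, 6 and 4 counts. The 0 of LPS Fth1-low replicate 1 allows up to 5.02 CPM, above 1 of the untreated libraries, so that library does not place the gene. LPS Fth1-high cells were 30.8-fold lower than untreated cells (-4.95 ± 0.64, adjusted p = 0.00046), with no overlap. That call held with any 1 library left out. Neither step through LPS Fth1-low cells passed, with -2.72 ± 0.76 against untreated cells and -2.23 ± 0.71 between the LPS groups (adjusted p = 0.11 and 0.096).

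**Figure D2:**
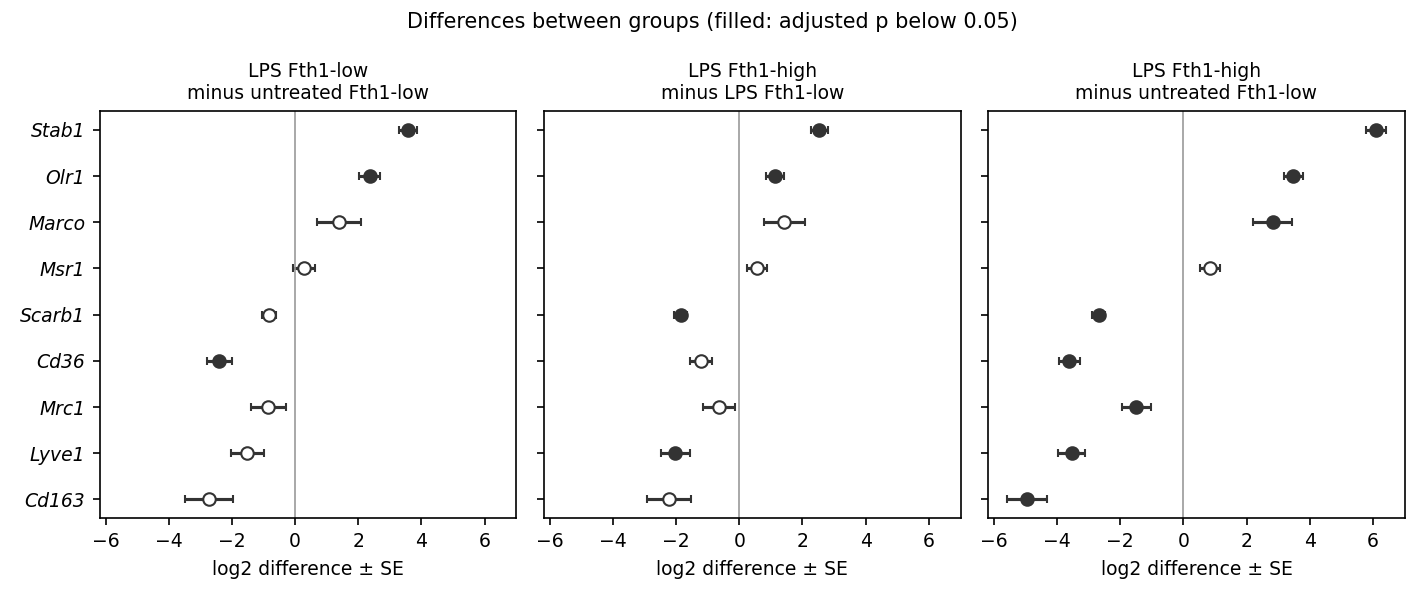
Log2 differences with their standard errors for the 9 genes in the 3 comparisons, from edgeR; filled points have an adjusted p below 0.05. Stab1 and Olr1 are filled to the right of 0 in each panel, from 6.10 for Stab1 in LPS Fth1-high minus untreated cells downwards, and Cd163 lies farthest to the left there at -4.95.

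CPM was divided by exon length (kb) to set the receptors beside each other. That length joins all GENCODE vM21 exons of a gene, 8500 bases for Scarb1 and 3590 for Cd36. The transcripts made in these cells may be shorter, and by different shares, so the order of genes is approximate. In untreated cells the order was Cd36 at 63.6 ± 21.5 CPM per kb (SD, n = 2), Scarb1 at 56.1 ± 4.71 and Msr1 at 31.4 ± 3.27, followed by Lyve1, Mrc1, Olr1, Cd163, Stab1 and Marco at 5.75 to 0.599. Cd36 and Scarb1 did not differ beyond their spread. In LPS Fth1-low cells Msr1 (37.2 ± 20.5, n = 2) and Scarb1 (31.1 ± 7.55) led without differing beyond their spread, and Cd36 (11.9 ± 0.367), Stab1 (10.1 ± 0.632) and Olr1 (8.12 ± 3.53) came next. In LPS Fth1-high cells Stab1 (58.3 ± 8.56, n = 3) and Msr1 (56.4 ± 7.85) were level within their spread, Olr1 was at 19.7 ± 4.54, and Scarb1 and Cd36 were at 8.71 ± 0.560 and 5.21 ± 1.83. Stab1 took 0.571 and 0.428% of the summed CPM per kb of the 9 genes in untreated cells, against 45.3, 34.9 and 32.9% in LPS Fth1-high cells. Cd36 went the other way, from 44.7 and 30.9% to 4.09, 1.96 and 4.07%.

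**Figure D3:**
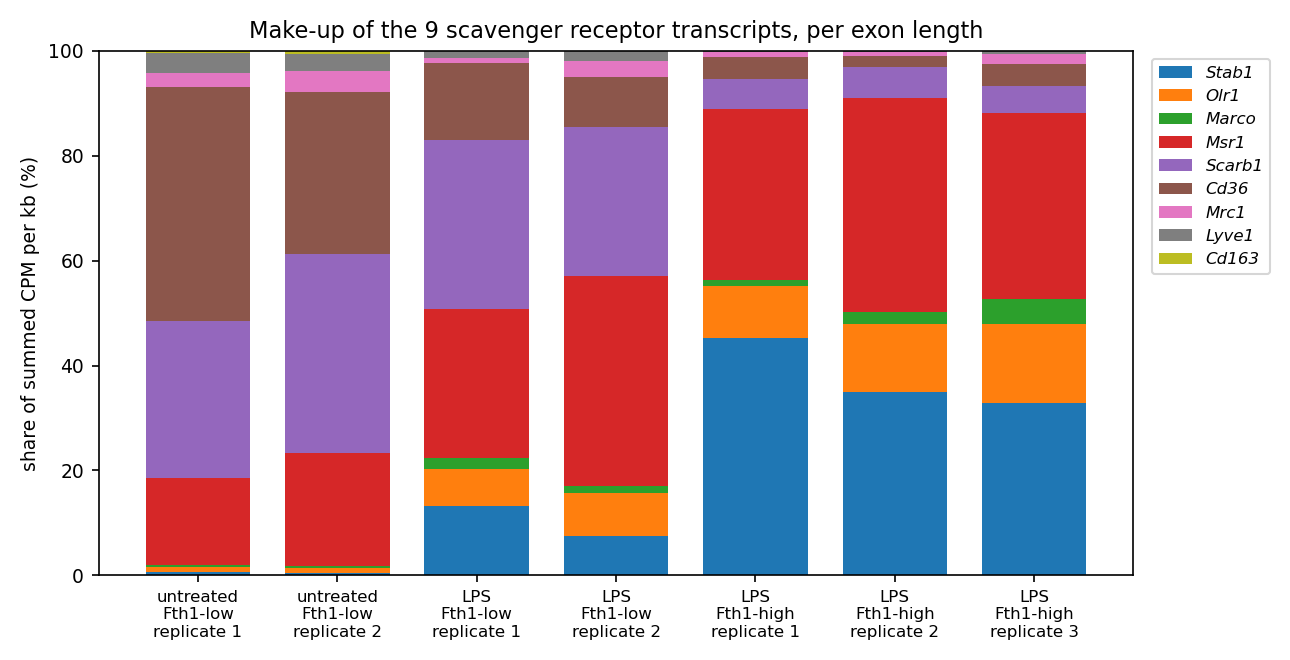
Share of each receptor in the summed CPM per kb of the 9 genes, 1 bar per library, with the length of all annotated exons of a gene. Cd36 and Scarb1 fill most of the untreated bars, with Cd36 at 44.7 and 30.9%, and Stab1 and Msr1 most of the LPS Fth1-high bars, with Stab1 at 45.3, 34.9 and 32.9%.

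A ratio of 2 genes within a library does not depend on how libraries were scaled. There were 0.0231 and 0.0137 Stab1 counts per Scarb1 count in the untreated libraries, 0.496 and 0.321 in LPS Fth1-low cells, and 9.47, 7.20 and 7.68 in LPS Fth1-high cells. Olr1 counts per Cd36 count were 0.0234 and 0.0338, then 0.480 and 0.867, then 2.38, 6.66 and 3.67. The 3 groups did not overlap in either ratio. Msr1 itself was not called, and Msr1 counts per Scarb1 count went from 0.411 and 0.423 to 0.656 and 1.06 and then to 4.19, 5.19 and 5.11. The pairs were chosen with these results known, and where a ratio passes 1 depends on the pair.

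**Figure D4:**
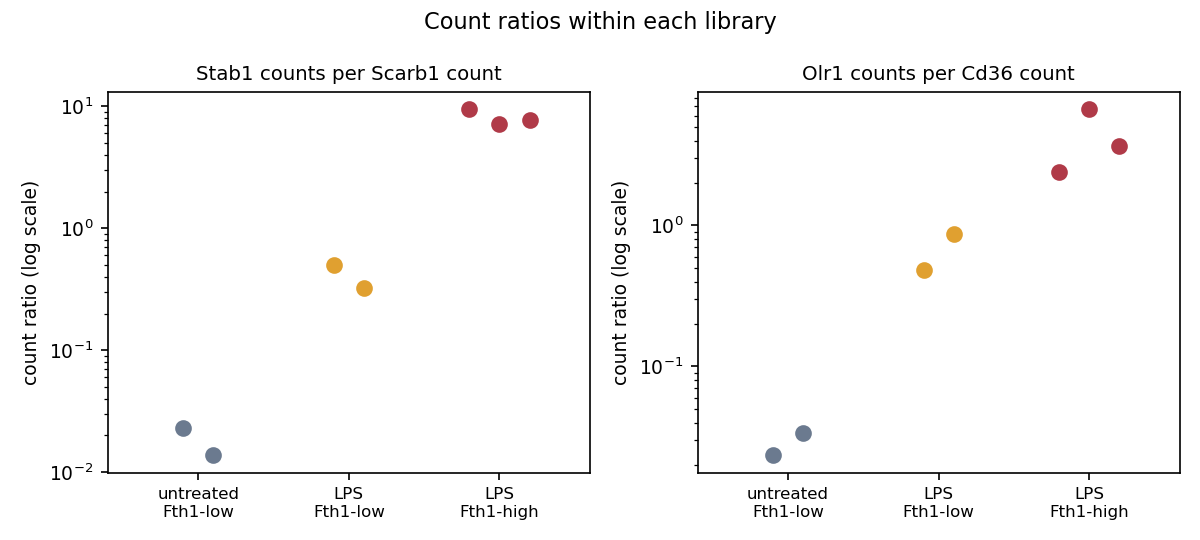
Stab1 counts per Scarb1 count (left) and Olr1 counts per Cd36 count (right) in each library, on log axes. The 3 LPS Fth1-high libraries lie highest in both panels, at 7.20 to 9.47 and 2.38 to 6.66, and the untreated ones lowest.

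Of a list of 20 other scavenger receptors, 16 could be tested. Cxcl16, which as a membrane protein binds phosphatidylserine and oxidised lipoprotein and as a shed form acts as a chemokine, rose in all 3 comparisons. Its mean was 11.0 ± 0.0631 CPM in untreated cells, 357 ± 105 CPM in LPS Fth1-low cells and 891 ± 98.7 CPM in LPS Fth1-high cells (SD), with log2 differences of 5.04 ± 0.30 and then 1.30 ± 0.24 (adjusted p = 4e-05 and 0.011). Cd68, a lysosomal glycoprotein of macrophages, rose by 1.05 ± 0.21 between the LPS groups (adjusted p = 0.014), a call that ended on dropping replicate 2 or 3 of LPS Fth1-high cells (adjusted p at most 0.07). Scarf1 rose by 1.93 ± 0.30 in LPS Fth1-high against untreated cells (adjusted p = 0.0013). Over all genes tested, 3.68% rose and 4.57% fell between the LPS groups. The shares were 2.99% and 0.629% in LPS Fth1-low against untreated cells, and 12.4% and 11.9% in LPS Fth1-high against untreated cells. Counts on this list were 2 higher and 0 lower between the LPS groups, 1 and 0 for LPS Fth1-low against untreated cells, and 3 and 0 for LPS Fth1-high against untreated cells. The first count became 1 without LPS Fth1-high replicate 2 or 3, and the 0 that fell in the last comparison became 2 without either LPS Fth1-low library and 1 without untreated replicate 2. The most abundant of the others, Lrp1, Clec7a, Lgals3 and Cd44, had log2 differences of -0.46 to 0.37 between the LPS groups, none of them called. The list medians were -0.34, -0.32 and -0.04, beside 0.04, -0.05 and 0.03 over all genes.

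Genes that handle receptor cargo once it is inside the cell were mostly higher in LPS Fth1-high cells. In the order given next, the shares of all genes called higher and lower were 3.68% and 4.57%, 2.99% and 0.629%, and 12.4% and 11.9%. Of 18 cargo genes, all tested, 10 rose and 0 fell between the LPS groups (list median 1.11), 3 rose and 1 fell in LPS Fth1-low against untreated cells (0.03), and 11 rose and 2 fell in LPS Fth1-high against untreated cells (1.39). Without LPS Fth1-low replicate 1 the first count was 6, and over all left-out libraries it ranged from 6 to 12. The second was 0 without either untreated library and 1 without LPS Fth1-low replicate 2. Abca1, the cholesterol exporter, had a mean of 13.4 ± 0.269 CPM in untreated cells, 57.0 ± 33.3 CPM in LPS Fth1-low cells and 651 ± 88.8 CPM in LPS Fth1-high cells. It rose by 3.39 ± 0.35 between the LPS groups (adjusted p = 0.00056) and kept that call with any 1 library left out. Hmox1, which degrades haem, rose by 2.27 ± 0.24 (adjusted p = 0.0007), from 113 ± 20.0 to 553 ± 95.2 CPM, while the haemoglobin receptor Cd163 was at most 0.244 CPM in the same LPS Fth1-high cells. Acsl1, which activates fatty acids, rose by 2.72 ± 0.31 (adjusted p = 0.00092), and the fatty acid carrier Fabp5 by 3.67 ± 0.50 (adjusted p = 0.0027). Fabp5 had 0 counts in LPS Fth1-low replicate 1, so its size there rests on replicate 2 of that group. Over left-out libraries it was called at 3.37 to 13.1, the last fitted against a group at 0 counts and so no bound. In LPS Fth1-low against untreated cells Abca1, Blvrb and Abcg1 rose by 2.21, 1.46 and 1.18 in log2 units and Fabp4 fell by 3.15 (adjusted p = 0.0076, 0.014, 0.039 and 0.044), and these calls ended on dropping any 1 of 3, 2, 5 and 4 libraries, both untreated ones among them. The exporter Abcg1 rose by 2.29 ± 0.25 in LPS Fth1-high against untreated cells (adjusted p = 0.00017).

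Against this, Fabp4, another fatty acid carrier, fell by 3.89 on the log2 scale in LPS Fth1-high against untreated cells (SE 0.55, adjusted p = 0.00083), from 22.6 ± 7.44 to 1.48 ± 0.981 CPM. Lipoprotein lipase, Lpl, fell by 1.31 there (SE 0.33, adjusted p = 0.017), a call that ended on dropping replicate 2 of either group (adjusted p at most 0.15). Fabp4 also stands on the list of alveolar macrophage markers. Fabp5 has processed pseudogenes, and the sources used here do not give how reads shared with them were counted.

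Among 18 co-receptors and signalling partners, 2 rose and 2 fell between the LPS groups, 1 rose and 0 fell in LPS Fth1-low against untreated cells, and 6 rose and 2 fell in LPS Fth1-high against untreated cells (medians 0.38, -0.04 and 0.38). Of all genes tested, 3.68% rose and 4.57% fell, 2.99% and 0.629%, and 12.4% and 11.9% in these comparisons. The last count of 6 became 4 and 2 without untreated replicates 1 and 2, the 1 that rose in the second comparison became 0 without either of them or LPS Fth1-low replicate 2, and the 2 that rose between the LPS groups became 0 and 4 without LPS Fth1-low replicates 1 and 2. The 2 that fell there became 1 without LPS Fth1-low replicate 2 or the last LPS Fth1-high library. The Src-family kinases Fyn and Lyn, which relay signals from Cd36, were lower in LPS Fth1-high than in LPS Fth1-low cells by log2 differences of -1.84 ± 0.23 and -1.26 ± 0.24 (adjusted p = 0.0015 and 0.011). For Lyn the call ended on dropping LPS Fth1-low replicate 2 or the third LPS Fth1-high library (adjusted p at most 0.052). The lipid receptor Trem2 and the tetraspanin Cd9 rose by 1.65 ± 0.29 and 2.18 ± 0.41 (adjusted p = 0.0087 and 0.011). Neither rise was called with LPS Fth1-low replicate 1 dropped, nor that of Cd9 with replicate 2 of that group dropped (adjusted p at most 0.091). Tlr4, the LPS receptor, rose by 1.48 ± 0.26 in LPS Fth1-low against untreated cells (adjusted p = 0.013), a call that ended on dropping either untreated library or LPS Fth1-low replicate 2 (adjusted p at most 0.12). It rose by 2.34 ± 0.24 in LPS Fth1-high against untreated cells (adjusted p = 0.00013), from 16.9 ± 0.208 to 85.7 ± 7.07 CPM.

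Transcription factors of a chosen list moved in both directions, and their action on these receptor genes was not tested. Of 20 tested, 2 rose and 4 fell between the LPS groups, 3 rose and 1 fell in LPS Fth1-low against untreated cells, and 6 rose and 5 fell in LPS Fth1-high against untreated cells (medians 0.05, -0.11 and -0.17). Over all genes the shares that rose and fell were 3.68% and 4.57%, 2.99% and 0.629%, and 12.4% and 11.9%. Between the LPS groups, the 4 that fell became 2 without LPS Fth1-low replicate 2, and the 2 that rose became 1 without untreated replicate 2, LPS Fth1-low replicate 1 or either of the last 2 LPS Fth1-high libraries. The 3 that rose in LPS Fth1-low against untreated cells became 0 to 2 with any 1 library left out. The 3 that rose in the second comparison, Tfec, Egr2 and Mitf (2.37, 2.19 and 1.21 on the log2 scale, adjusted p = 0.019, 0.023 and 0.042), became 0 when replicate 2 of either group was dropped. Pparg and Nr1h3 are named outside the rule, after their values were seen. Pparg, a nuclear receptor of which Cd36 and Fabp4 are textbook targets, fell by 3.99 on the log2 scale in LPS Fth1-high against untreated cells (SE 0.63, adjusted p = 0.0024), from 37.9 ± 3.29 to 2.30 ± 2.06 CPM. It was at 8.23 CPM in the mean of LPS Fth1-low cells. Nr1h3, the oxysterol receptor LXR-alpha, of which Abca1 is a textbook target, rose by 2.38 ± 0.42 (adjusted p = 0.0032), from 22.7 ± 7.50 to 117 ± 12.5 CPM. Links between Pparg or Nr1h3 and the genes named as their targets were not tested. Mitf rose by 1.41 ± 0.25 between the LPS groups (adjusted p = 0.009), while Bach1, the repressor of Hmox1, fell by 1.42 (SE 0.21, adjusted p = 0.0036) and Nr4a1 by 1.46 (SE 0.22, adjusted p = 0.0037). In LPS Fth1-high against untreated cells Mitf and Egr2 rose by 2.62 ± 0.26 and 3.29 ± 0.42 (adjusted p = 8.5e-05 and 0.00044), and each of these calls held with any 1 library left out. The call for Rxra, the 1 factor that fell in LPS Fth1-low against untreated cells (-0.98, adjusted p = 0.034), ended on dropping any of the 7 libraries. Among the pathway genes named here, Cxcl16, Acsl1, Cd9, Lyn and Nr1h3 share exonic bases with another annotated gene, as Stab1 does.

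Marker genes of several cell types that could carry these receptors were counted in the libraries, and which cells made them was not tested. Marker calls here and in the next paragraph stand beside 3.68% of all genes called higher and 4.57% lower between the LPS groups. Those shares were 2.99% and 0.629% in LPS Fth1-low against untreated cells, and 12.4% and 11.9% in LPS Fth1-high against untreated cells. Blood endothelial markers, 10 genes of which 0 were called in any comparison (median log2 difference -1.36 for LPS Fth1-high against untreated cells), summed to 422 and 156 CPM in untreated cells, 335 and 163 CPM in LPS Fth1-low cells, and 234, 49.0 and 130 CPM in LPS Fth1-high cells. Within groups, the untreated library with the higher sum had more Cd36 and more Lyve1. The LPS Fth1-low library with the higher sum had less of both, but its Cd36 was close (41.9 against 43.7 CPM) and its Lyve1 rests on 2 counts. Of the LPS Fth1-high libraries, replicate 2 had the lowest sum and the lowest Cd36 and Lyve1 (11.1 and 0.813 CPM). Replicate 1 had the highest sum there, and replicate 3 the most of both genes. Epithelial markers summed to 736 CPM in untreated replicate 1 and to between 5.41 and 109 CPM elsewhere, with 0 of 7 called. Dendritic cell markers summed to 142 and 142 CPM in untreated cells, 92.1 and 93.3 CPM in LPS Fth1-low cells and 17.0, 16.6 and 22.8 CPM in LPS Fth1-high cells, the order of Cd36, Scarb1 and Lyve1. Of these 8 genes, 3 fell (Flt3, Cd209a and Clec10a) between the LPS groups and in LPS Fth1-high against untreated cells. Cd209a was the 1 that fell in LPS Fth1-low against untreated cells, where the list median was 0.36. Ccr7, Clec9a, Xcr1 and Siglech were at 26.8, 8.66, 4.88 and 0.914 CPM in LPS Fth1-low cells, above 7.33, 3.89, 0.733 and 0.125 CPM in untreated cells. None of these differences was called, and not every gene followed the order of the sums. The part of these cells in the member differences was not tested.

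Alveolar macrophage markers summed to 2022 and 1829 CPM in untreated cells, 3516 and 6142 CPM in LPS Fth1-low cells, and 604, 2023 and 972 CPM in LPS Fth1-high cells, mostly from Chil3. Chil3, Ear2 and Itgax reached 5810, 447 and 228 CPM. Siglecf, Krt79, Fabp1 and Ear1 were at most 5.02, 2.26, 1.12 and 6.95 CPM, so the sums are no measure of such cells. Which cells made Chil3, Ear2 and Itgax was not tested. Of 11 tested, 0 rose in any comparison, and 2 fell between the LPS groups, 1 in LPS Fth1-low against untreated cells and 3 in LPS Fth1-high against untreated cells. Of those called, Ear2 fell most, from 352 ± 134 CPM in untreated cells to 6.56 ± 3.72 CPM in LPS Fth1-high cells (adjusted p = 3e-05). Interstitial macrophage markers, which share with Stab1, Mrc1 and Lyve1 a use in naming lung macrophages, summed to 973 and 1063 CPM, 621 and 1560 CPM, and 1385, 2133 and 2143 CPM in the same order. Of 11 tested, 3 rose and 0 fell between the LPS groups and in LPS Fth1-low against untreated cells, and 4 rose and 2 fell in LPS Fth1-high against untreated cells. The complement genes C1qa, C1qb and C1qc rose in all 3 comparisons, with C1qa at 1.35 ± 0.328 CPM in untreated cells, 145 ± 104 CPM in LPS Fth1-low cells and 571 ± 191 CPM in LPS Fth1-high cells. F13a1 and Mgl2 fell in LPS Fth1-high against untreated cells (-1.26 and -3.29, adjusted p = 0.032 and 0.019). Folr2 and Timd4, which mark resident macrophages together with Lyve1, were at most 1.27 and 0.257 CPM. A list of 6 monocyte genes held Lyz2, Itgam, Ly6c2 and Ly6c1, which stand for markers of the sort, and Ccr2 and Csf1r, which do not. Of these, 0 rose and 1 fell between the LPS groups (median 0.68), and 2 rose and 1 fell in LPS Fth1-high against untreated cells. Ccr2, the chemokine receptor of classical monocytes, fell in both (-2.44 and -2.55, adjusted p = 0.0057 and 0.0014), and Ly6c2 and Ly6c1 rose against untreated cells (1.78 and 2.11, adjusted p = 0.0039 and 0.0067).

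For each member called at least once, the genes of most similar pattern were found by the root mean square difference of centred log2 CPM over the 7 libraries, among 8077 genes whose mean reached 10 CPM. Nearest to Stab1 were Nek6 (0.363), Slamf6 (0.373) and Fmnl2 (0.378). Nearest to Olr1 were Ier3 (0.176), Hcar2 (0.184) and Bst1 (0.202), and nearest to Marco were Bcl2a1a (0.351), Lrp12 (0.372) and Pld3 (0.415). Of the 8 called members Scarb1 had the closest neighbours, Csgalnact2 (0.102), Fam129a (0.133) and Rassf5 (0.144). Thbd was among the 3 nearest of both Cd36 (0.414, after Cd300lb at 0.295 and before Alox5 at 0.418) and Lyve1 (0.258, between St6gal1 at 0.221 and Gprc5a at 0.322). Mrc1 was nearest to Hmgn5 (0.369), Sord (0.397) and Slc35e3 (0.426). For Cd163 the nearest genes were far off, Cd300e at 0.560, Eno3 at 0.755 and Mpp6 at 0.914. These libraries share their preparation and differ 43.9 times in depth, so likeness is a description of 7 points.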

How the data were processed

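Whole-number read counts per gene symbol were deposited by the authors as 1 table of 7 libraries, and 0 of its sample columns were left unused. Per the submitters' processing notes, DRAGEN, DESeq2 and the mm10 build were used; the sources used here give no versions, annotation or strand setting. Counts were tested with edgeR 4.0.16 (R 4.3.3): filterByExpr, TMM scaling, 1 quasi-likelihood model of the 3 groups with robust dispersion, and Benjamini-Hochberg adjustment over 13665 genes, called below 0.05. SE is the absolute log2 difference divided by the root of F. CPM used TMM-scaled library sizes. Alternatives used limma 3.58.1 and DESeq2 1.42.0, other filters and scaling, thinning, a replicate block and each library left out. Table symbols matched GENCODE vM21 for 96.2%. On simulated data (13665 genes), genes changed by 2 and by 1 on the log2 scale were recovered at 66% and 14% between the LPS groups, 68% and 13% for LPS Fth1-low against untreated, and 82% and 25% for LPS Fth1-high against untreated; 8.05%, 10% and 11.6% of calls were unchanged genes, above the nominal 5%. The members and lists were chosen with earlier results of these data known. Named genes were the members, up to 4 called genes of smallest adjusted p per list and comparison (or its 2 most abundant), scarce and abundant markers, and the 3 nearest genes per called member; exceptions are stated.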

Additional observations from a re-analysis of the deposited data

How the results depend on the processing

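Of 27 member results, 14 kept their direction and their side of the threshold under every setting that could fit them (at most 16 each), and 9 of the 15 called results were kept throughout: Stab1 in all 3 comparisons, Scarb1 in both that involve LPS Fth1-high cells, and Cd36, Olr1, Cd163 and Lyve1 in LPS Fth1-high against untreated cells. Between the LPS groups, members called higher were 1 in place of 2 with limma-voom quality weights, with only the 2 groups compared and with ribosomal RNA genes left out, and 1 to 2 over left-out libraries. Members called lower there were 1 with only the 2 groups compared and with thinned libraries, and 1 to 2 over left-out libraries. In LPS Fth1-low against untreated cells, members called lower were 2 with DESeq2, 0 with limma-voom weights, 2 with the filter of 10 CPM and 0 to 1 over left-out libraries, and members called higher 1 to 2. In LPS Fth1-high against untreated cells, members called lower were 2 with thinned libraries, where Cd163 and Lyve1 could not be fitted. Their calls in that comparison were kept under the 14 and 15 settings that fitted them, so thinning did not test them. All genes called between the LPS groups were 1128, and 658 to 1061 over left-out libraries. For LPS Fth1-low against untreated cells they were 495, with 824 by DESeq2, 329 by limma-voom weights and 197 to 531 over left-out libraries. For LPS Fth1-high against untreated cells they were 3315, with 1982 when thinned and 1918 to 4143 over left-out libraries. Signs reversed only on leaving out LPS Fth1-low replicate 2: over left-out libraries Mrc1 between the LPS groups ranged from -1.13 to 1.33, Cd163 there from -2.58 to 4.65, and Msr1 in LPS Fth1-low against untreated cells from -0.49 to 0.75. In each, the lone LPS Fth1-low library was assumed to vary like the other groups, and the cause was not tested.

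With the replicate number as a block, 1328, 741 and 3119 genes were called in these comparisons; members called were 2 higher and 3 lower, 2 and 1, and 4 and 5. Same-numbered libraries had deviations correlated at -0.04 to 0.29, and the labels do not tie the numbers to a mouse or day, so the samples share only a number. The lists with each library left out were added after seeing the data. Depth limits the low members most: in LPS Fth1-low replicate 1, Marco and Lyve1 had 2 counts each, Mrc1 3 and Cd163 0, and 1 count is 1.67 CPM.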
